A study of Mus musculus with 9 samples.

Results

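The 10 genes described here encode the structural components of the desmosome: the desmosomal cadherins Dsg2, Dsg3, Dsc2 and Dsc3, the plaque proteins Dsp, Jup, Pkp1, Pkp2 and Pkp3, and the membrane protein Perp. They were taken as a named list, not by a cutoff on their measured values, though earlier results of these data were known. All were found by symbol among 56481 gene symbols of a mouse RNA sequencing study. Of those symbols, 31906 had a count in any library, and all 10 members passed the filter on low counts in each comparison. Libraries of 3 groups were compared, with 3 libraries each. The iCEC cells were induced from mouse neural crest cells with SB431542 at 5 µM, which blocks the type I receptor of TGF-β, in DMEM/F12 with 5% knockout serum replacement that was renewed every 2 days; their colonies were characterised on day 12. The pCEC cells were mouse cells labelled primary corneal endothelial cells, and the pNCC cells were primary neural crest cells of E13.5 embryos, both kept in DMEM with 10% fetal bovine serum. The labels name no transgene or mutation for any group, and strain and age of the pCEC donors were not given in the sources used here. The medium differed between iCEC and both primary groups, so that medium, inhibitor and cell kind cannot be told apart in the comparisons with iCEC. Replicates were not stated to be separate animals or cultures, so p-values speak of the spread between libraries, which may be technical.

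A desmosome is a spot-like junction that ties the intermediate filaments of neighbouring cells together. Desmogleins and desmocollins, single-pass cadherins, bind each other in the gap between the cells; inside, plakoglobin (Jup) and the plakophilins bind their tails, and desmoplakin (Dsp) links this plaque to keratin or other intermediate filaments. Desmosomes are known from tissues under mechanical load, such as the epidermis, the corneal epithelium and the heart, and the isoforms of cadherins and plakophilins differ between simple and stratified epithelia. Neural crest cells are migratory cells that leave the neural tube by an epithelial to mesenchymal transition, in which epithelial junctions are lost.

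Total counts ran from 27389292 to 47967113 per library, so that 3 counts amounted to 0.0625 to 0.110 CPM (counts scaled to the library total). The labels give polyA RNA for all libraries except pCEC 2 and pCEC 3, which are labelled total RNA. Markers of a surface epithelium were present in iCEC and pCEC: the summed level of 7 such genes was 13190 to 18930 CPM in iCEC, 32841 to 45503 CPM in pCEC and 80.8 to 133 CPM in pNCC. The corneal epithelial keratin Krt12 had 0, 0 and 0.0298 CPM in iCEC, 8974, 10428 and 11145 CPM in pCEC and no count in pNCC. The corneal endothelial collagen Col8a2 had 0, 0.109 and 0.119 CPM in iCEC, 77.2, 153 and 37.6 CPM in pCEC and 18.4, 4.93 and 9.54 CPM in pNCC. Other corneal endothelial markers went the other way: the carbonic anhydrase Car2 had 108, 33.7 and 23.4 CPM in iCEC, 0.299, 0.832 and 0.219 CPM in pCEC and 0.995, 1.70 and 0.285 CPM in pNCC. Summed over 9 such markers the level was 722 to 875 CPM in iCEC, 709 to 957 CPM in pCEC and 293 to 377 CPM in pNCC. That sum gives most weight to abundant genes such as Tjp1, with means of 345 CPM in iCEC and 277 CPM in pCEC. Of the 9 markers, 1 was called higher and 2 lower in iCEC than in pCEC, and 6 were not called (edgeR). Of all genes, 10.5% were higher and 9.92% lower. The median log2 fold change of the markers was -2.22. The part of each cell kind in the desmosomal levels was not tested. In bulk RNA, fewer cells of a type and less RNA per cell cannot be told apart. Heart muscle also has desmosomes. The summed level of 7 of its markers was 10.8 to 35.7 CPM in iCEC, 7.96 to 11.5 CPM in pCEC and 3.91 to 15.5 CPM in pNCC, and the myosins Myh6 and Myh7 were at 0 in every iCEC and pCEC library. The library iCEC 3 stood apart from iCEC 1 and iCEC 2 in several epithelial genes. Calls that change without it are given both ways for Jup, Perp, Evpl and Ppl only.

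Promoter sequences (250 bases before to 50 after the start site, RefSeq, build GRCm38.p6) are given for 2 of the 10 members, Jup and Dsp. These members anchor the cadherins to the filaments. The desmosomal cadherin members were left out of this search, and of the remaining members only Jup and Dsp had a sequence. Jup and Dsp were, like most members, higher in iCEC and in pCEC than in pNCC. Capitals in the Dsp sequence mark a match to a 10-base unit of a p53 family site and then the E-box CAGGTG. Repressors of the Snail and Zeb families can bind that E-box. The Jup promoter lies at chr11:100397741-100398040 on the minus strand and the Dsp promoter at chr13:38151044-38151343 on the plus strand.
Jup: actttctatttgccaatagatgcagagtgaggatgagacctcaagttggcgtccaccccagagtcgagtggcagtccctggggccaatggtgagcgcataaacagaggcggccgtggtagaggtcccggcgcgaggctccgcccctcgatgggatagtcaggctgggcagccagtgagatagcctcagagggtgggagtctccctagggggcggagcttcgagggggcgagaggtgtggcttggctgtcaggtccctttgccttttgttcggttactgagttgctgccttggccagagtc
Dsp: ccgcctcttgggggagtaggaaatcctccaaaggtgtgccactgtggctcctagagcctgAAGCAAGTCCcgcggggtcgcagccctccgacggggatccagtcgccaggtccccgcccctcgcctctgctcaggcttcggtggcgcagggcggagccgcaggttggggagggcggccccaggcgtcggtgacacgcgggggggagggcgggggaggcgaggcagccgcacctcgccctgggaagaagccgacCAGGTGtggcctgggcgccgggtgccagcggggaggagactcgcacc
Motifs were searched on both strands. CAGGTG matched the Dsp promoter at bases 4 to 9, counted from the start site as base 1, and 20.2% of all 32851 promoters in the table held it. A single 10-base unit of a p53 family site matched Dsp at bases -190 to -181, and 8.36% of all promoters held such a unit. Full sites made of repeated units were not searched. The grainyhead-like motif AACNGGTT (2.09% of promoters) and the AP-1 motif TGANTCA (7.81%) had no match in either promoter, and Jup had no match to any of the 4 motifs. The GC content was 60.7% for Jup and 73.0% for Dsp, against a median of 52.7%.

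Desmosomal transcripts were far higher in iCEC and in pCEC than in pNCC, with Pkp2 as the exception. In iCEC relative to pNCC, 9 of 10 members rose and Pkp2 did not pass the test, where 16.1% of the 16293 genes tested rose (edgeR quasi-likelihood test, Benjamini-Hochberg adjusted p under 0.05). In pCEC relative to pNCC, 9 members rose and Pkp2 fell, where 30.3% of 16608 genes rose and 32.2% fell. Between iCEC and pCEC the members went both ways: Dsg2 and Pkp2 were higher in iCEC, 5 members were lower and Dsg3, Jup and Perp did not pass, where 10.5% of 16278 genes were higher and 9.92% lower. The median log2 fold change of the 10 members was 7.28 for iCEC over pNCC, 8.38 for pCEC over pNCC and -1.11 for iCEC over pCEC, against medians of 0.051, -0.013 and 0.039 over all genes tested. The comparisons with pNCC share its libraries and are not independent of each other. Counted by non-overlapping CPM ranges alone, 9 members were higher in iCEC than in pNCC, where 25.1% of genes were higher and 25.9% lower in that way. In pCEC against pNCC, 9 were higher and 1 lower, where 30.8% of genes were higher and 39.9% lower. In iCEC against pCEC, 2 were higher and 6 lower (the 5 called ones and Jup), where 24.4% of genes were higher and 19.4% lower.

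**Figure D1:**
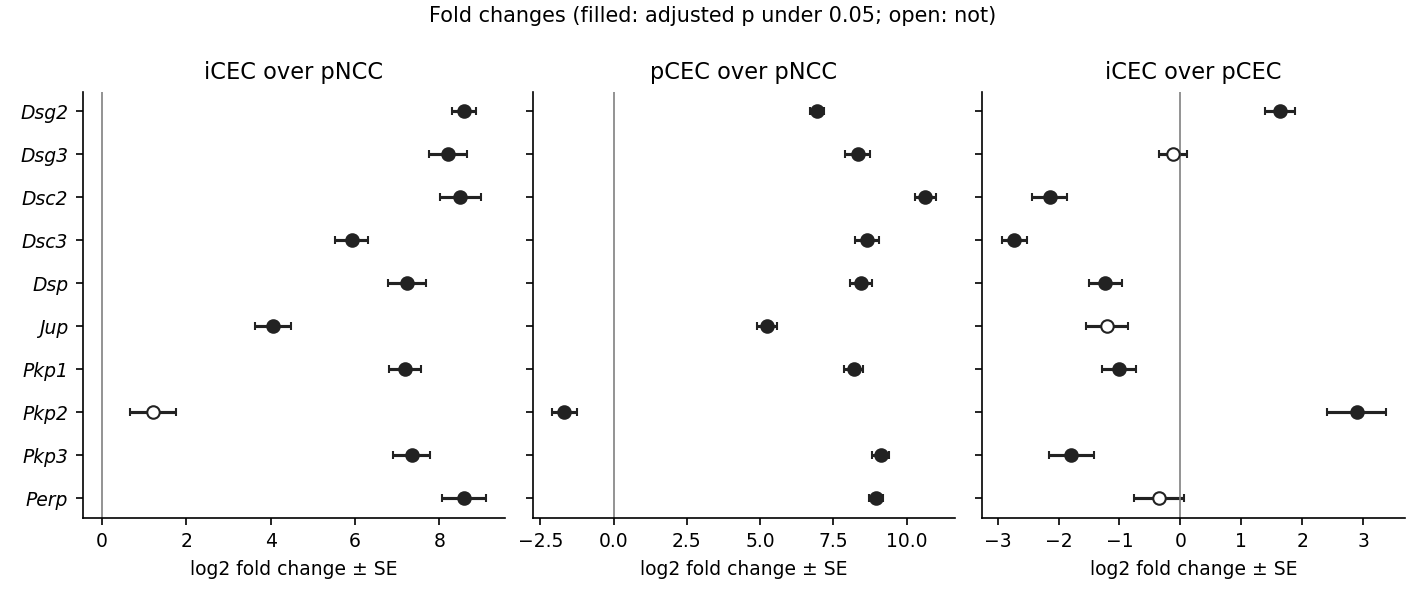
Log2 fold changes of the 10 members in each comparison (x axis, log2 units; error bars, SE from the edgeR fit; filled symbols, adjusted p under 0.05). All members except Pkp2 lie between 4.05 and 10.63 in the comparisons with pNCC, while the values of iCEC over pCEC lie between -2.72 and 2.89.

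Desmogleins bind plakoglobin through their tails, and Dsg2 is the isoform of simple epithelia and the basal layer. Dsg2 (chr18:20558074-20604521, plus strand, mm10) had 149, 199.5 and 259 CPM in iCEC, 77.5, 49.5 and 52.9 CPM in pCEC and 0.591, 0.528 and 0.457 CPM in pNCC. The 3 groups did not overlap, and iCEC was the highest group. Its log2 fold change was 8.58 ± 0.283 (SE) in iCEC over pNCC (adjusted p = 1.26e-04, edgeR), a 382-fold difference, and 6.95 ± 0.236 in pCEC over pNCC (adjusted p = 1.51e-06, edgeR). It was 3.11-fold higher in iCEC than in pCEC (log2 fold change 1.64 ± 0.248, adjusted p = 0.00787 by edgeR), a call lost without pCEC 3 (adjusted p = 0.0515). An antisense gene, Gm16090, shares 330 exon bases with Dsg2 and had at most 14 counts in a library.

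Dsg3, a desmoglein of stratified epithelia and the antigen of pemphigus vulgaris, lies beside Dsg2 (chr18:20510274-20547459, plus strand). It had 715, 818 and 777 CPM in iCEC, 789, 629 and 898 CPM in pCEC and 1.93, 1.99 and 3.94 CPM in pNCC. The iCEC and pCEC ranges overlapped and both lay far above pNCC. The fold was 294 for iCEC over pNCC (adjusted p = 3.17e-04, edgeR) and 319 for pCEC over pNCC (adjusted p = 7.77e-06, edgeR). The log2 fold change of iCEC over pCEC was -0.12 ± 0.234 (SE, adjusted p = 0.745 by edgeR), and a difference was not detected. Without pCEC 3 its sign turned, to 0.040 (adjusted p = 0.942).

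Desmocollins are the partners of desmogleins across the cell gap. Dsc2 (chr18:20030633-20059554, minus strand), the desmocollin with the widest tissue range, had 282, 435 and 294 CPM in iCEC, 1490.2, 1222 and 1447 CPM in pCEC and 0.591, 1.29 and 0.971 CPM in pNCC. Dsc3 (chr18:19960930-20002351, minus strand), typical of stratified epithelia, had 178, 172 and 174 CPM in iCEC, 1292, 992 and 929 CPM in pCEC and 1.80, 2.73 and 4.11 CPM in pNCC. For both genes pCEC was highest, iCEC intermediate and pNCC lowest, with no overlap between groups. Dsc2 was 360.5-fold higher in iCEC than in pNCC (adjusted p = 3.55e-04, edgeR) and 1586-fold higher in pCEC than in pNCC (adjusted p = 1.51e-06, edgeR), and 1586 was the highest fold of a member in these comparisons. Dsc3 was 60.7-fold and 401-fold higher in the same comparisons (adjusted p = 4.86e-04 and 4.76e-06, edgeR). In iCEC relative to pCEC, Dsc2 fell by 2.14 ± 0.288 and Dsc3 by 2.72 ± 0.210 on the log2 scale (adjusted p = 0.00599 and 0.00153, edgeR). These are calls that held without each single library in turn. The library spread of Dsc3 in iCEC was narrow, with a coefficient of variation of 1.86%, against 18.1% in pCEC and 40.3% in pNCC.

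**Figure D2:**
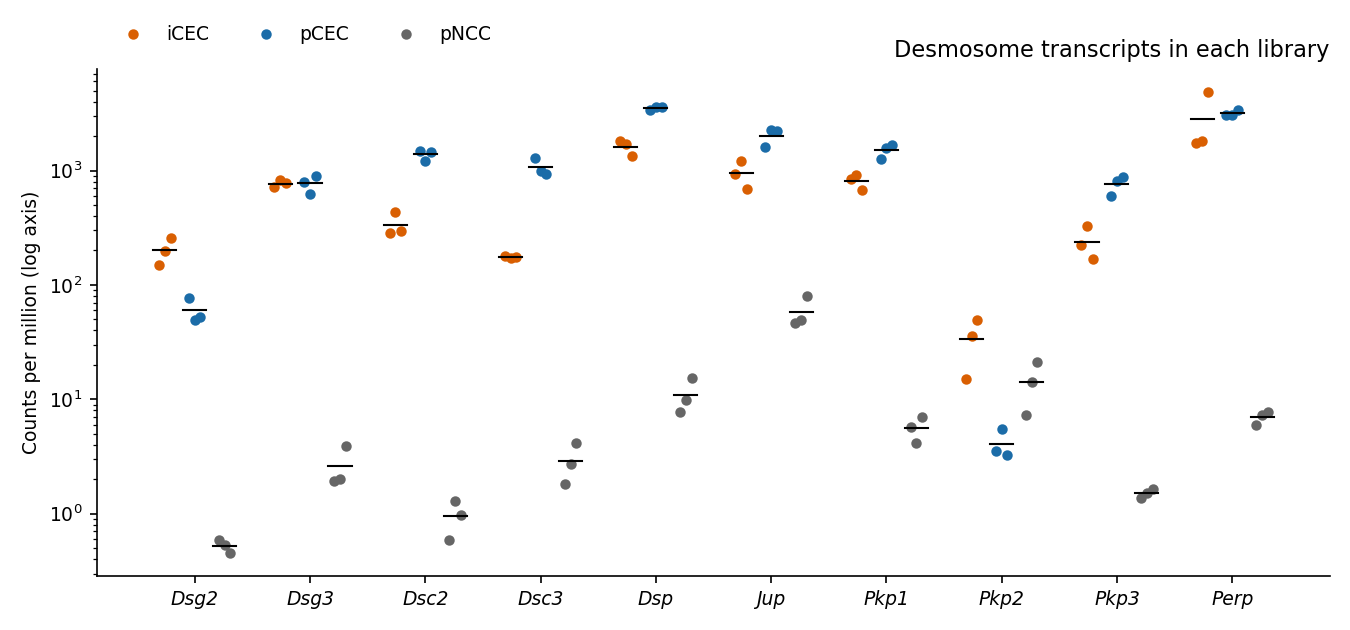
CPM of each member in each library (log10 y axis, points; black bars, mean of 3 libraries) for iCEC, pCEC and pNCC. Every member except Pkp2 stands in pNCC below all libraries of the other groups; Pkp2 is lowest in pCEC.

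Desmoplakin (Dsp, chr13:38151294-38198577, plus strand) is the obligate link between the plaque and the filaments. Its level was 1819, 1712 and 1327 CPM in iCEC, 3372, 3622 and 3556 CPM in pCEC and 7.71, 9.88 and 15.3 CPM in pNCC. The groups did not overlap. Dsp was 149-fold higher in iCEC than in pNCC (log2 fold change 7.22 ± 0.449, adjusted p = 4.31e-04 by edgeR) and 348-fold higher in pCEC than in pNCC (8.44 ± 0.375, adjusted p = 3.57e-06 by edgeR). Relative to pCEC, iCEC fell by 1.23 ± 0.266 on the log2 scale (adjusted p = 0.0225, edgeR). That call was lost without iCEC 1 (adjusted p = 0.0554), pCEC 1 (0.0626), pCEC 2 (0.0938) or pCEC 3 (0.0877). A short gene on the opposite strand, Gm10129, shares 499 exon bases with Dsp and had at most 5 counts in a library.

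Plakoglobin (Jup, chr11:100368958-100397763, minus strand) sits both in desmosomes and in adherens junctions, where it can stand in for β-catenin. It had 938, 1215 and 686 CPM in iCEC, 1592, 2254 and 2209 CPM in pCEC and 46.7, 49.5 and 79.3 CPM in pNCC. Its rise was the smallest of the 9 members that rose, at 16.6-fold in iCEC over pNCC (log2 fold change 4.05 ± 0.419, adjusted p = 0.00180 by edgeR) and 37.7-fold in pCEC over pNCC (5.24 ± 0.331, adjusted p = 1.50e-05 by edgeR). All iCEC libraries lay below all pCEC libraries, but the log2 fold change of -1.20 ± 0.347 did not pass (adjusted p = 0.0536, edgeR). It passed without iCEC 2 (adjusted p = 0.0421) and without iCEC 3 (adjusted p = 0.0488). Within libraries, the log2 ratio of Jup to Dsp counts, not divided by length, was -0.80 ± 0.265 in iCEC, -0.82 ± 0.229 in pCEC and 2.43 ± 0.147 in pNCC (SD, n = 3 each). The ratio of iCEC overlapped that of pCEC and lay below that of pNCC in every library; an exact permutation test of 3 against 3 libraries cannot go below p = 0.1, which it reached here for each group against pNCC.

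Plakophilins are armadillo proteins that cluster desmoplakin at the plaque. Pkp1 (chr1:135871395-135919207, minus strand), the plakophilin of suprabasal stratified epithelia, had 838, 909.6 and 672 CPM in iCEC, 1255, 1578 and 1660.5 CPM in pCEC and 5.69, 4.16 and 7.02 CPM in pNCC. Pkp3 (chr7:141078218-141090510, plus strand), found through most epithelial layers, had 222, 326 and 169 CPM in iCEC, 600.1, 815 and 881 CPM in pCEC and 1.37, 1.52 and 1.66 CPM in pNCC. Both genes were highest in pCEC and lowest in pNCC, without overlap. Pkp1 was 146-fold higher in iCEC than in pNCC (adjusted p = 3.08e-04, edgeR) and 291-fold higher in pCEC than in pNCC (adjusted p = 2.52e-06, edgeR). Pkp3 was 162-fold and 553-fold higher in these comparisons (adjusted p = 3.89e-04 and 1.23e-06, edgeR). Relative to pCEC, iCEC fell by 1.01 ± 0.278 for Pkp1 and by 1.79 ± 0.365 for Pkp3 on the log2 scale (adjusted p = 0.0472 and 0.0190, edgeR). The Pkp1 call was lost without iCEC 1 (adjusted p = 0.112), iCEC 2 (0.0541), pCEC 1 (0.0695), pCEC 2 (0.154) or pCEC 3 (0.158). The Pkp3 call was lost without iCEC 1 (adjusted p = 0.0621), pCEC 2 (0.0716) or pCEC 3 (0.0731).

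Pkp2 (chr16:16213318-16272712, plus strand), the plakophilin of simple epithelia and of heart muscle, went another way. It had 15.1, 36.0 and 49.3 CPM in iCEC, 3.50, 5.46 and 3.29 CPM in pCEC and 7.27, 14.1 and 21.2 CPM in pNCC. The iCEC and pNCC ranges overlapped, and every pCEC library lay below both other groups. The log2 fold change was 1.20 ± 0.537 in iCEC over pNCC (adjusted p = 0.141, edgeR). In pCEC, Pkp2 fell by 1.68 ± 0.429 on the log2 scale relative to pNCC (adjusted p = 0.0115, edgeR), a call lost without pCEC 3 (adjusted p = 0.0503). It was 7.42-fold higher in iCEC than in pCEC (log2 fold change 2.89 ± 0.477, adjusted p = 0.0104 by edgeR), a call lost without pCEC 1 (adjusted p = 0.0549) or pCEC 3 (0.0575).

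Perp (chr10:18845020-18857073, plus strand) encodes a tetraspan membrane protein, a target of p53 and of p63, that is needed for desmosomes of stratified epithelia. It had 1756, 1800.1 and 4844 CPM in iCEC, 3084, 3077 and 3367 CPM in pCEC and 5.97, 7.33 and 7.71 CPM in pNCC. The library iCEC 3 was above all pCEC libraries, whereas iCEC 1 and iCEC 2 were below them. Perp was 384-fold higher in iCEC than in pNCC (log2 fold change 8.58 ± 0.519, adjusted p = 3.95e-04 by edgeR) and 496-fold higher in pCEC than in pNCC (8.95 ± 0.238, adjusted p = 8.64e-07 by edgeR). The log2 fold change of iCEC over pCEC was -0.35 ± 0.409 (adjusted p = 0.589, edgeR). Without iCEC 3 it was -0.87 and passed (adjusted p = 0.0245).

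The differences between iCEC and pCEC have a further limit, the library type. With pCEC represented by its polyA library alone, which was then assumed to vary like the iCEC libraries, none of the 18806 genes tested passed the edgeR test in either direction, so that fit gives no calls to set beside the others. Adjusted p-values of the members were 0.101 to 0.973, and 4 of 10 had an unadjusted p under 0.05. The direction held for each of the 10 members in that fit: the log2 fold change of iCEC over pCEC was -2.14 for Dsc2, -2.90 for Dsc3, -1.06 for Dsp, -0.64 for Pkp1, -1.32 for Pkp3, 1.37 for Dsg2 and 3.23 for Pkp2.

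Levels per length of transcript allow the members to be set against each other within a library. Counts divided by exon length and scaled to the library (TPM) put Perp first in iCEC and pCEC, at 4735 ± 3291 and 5328 ± 246 TPM (SD, n = 3 each), and Jup first in pNCC, at 35.4 ± 10.8 TPM. Summed over the 10 members the level was 7231 ± 3120 TPM in iCEC, 11115 ± 538 TPM in pCEC and 74.5 ± 20.9 TPM in pNCC. Perp made up 53.8%, 50.6% and 78.9% of that sum in iCEC, 48.8%, 47.0% and 48% in pCEC and 20.7%, 21.5% and 15.7% in pNCC, so that iCEC 3 stood apart. Jup made up 7.49 ± 3.65% in iCEC, 9.21 ± 1.43% in pCEC and 47.3 ± 2.83% in pNCC. With the longest transcript as length, the Jup share was 13.4% in iCEC, 16.3% in pCEC and 59.3% in pNCC.

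The isoforms within a family also shifted between the groups. Of the summed Dsg2 and Dsg3 counts per kb, Dsg2 held 18.0 ± 3.62% in iCEC, 6.21 ± 1.46% in pCEC and 15.9 ± 6.16% in pNCC (SD, n = 3 each), and its share was higher in every iCEC library than in every pCEC library. Dsg1a, not a member, was left out of these shares. Its mean in pCEC was 525 TPM, above that of Dsg3 at 362 TPM. Dsc2 held 65.8 ± 5.56% of Dsc2 and Dsc3 in iCEC, 57.1 ± 3.83% in pCEC and 25.7 ± 6.60% in pNCC: Dsc2 was the leading isoform in iCEC and pCEC, and Dsc3 in pNCC, where Dsc2 had 97 counts in all. Among Pkp1, Pkp2 and Pkp3, Pkp1 held 69.3 ± 3.68% in iCEC, 58.5 ± 1.29% in pCEC and 28.3 ± 9.79% in pNCC. Pkp2 held 2.83 ± 1.85% in iCEC, 0.151 ± 0.0413% in pCEC and 61.1 ± 11.9% in pNCC. Among these plakophilins, Pkp2 was thus the rarest transcript in each iCEC and pCEC library and the leading one in each pNCC library. Pkp4, not a member, was left out of these shares. It had 26.6, 30.8 and 21.7 TPM in pNCC, above Pkp2 at 5.35, 10.2 and 15.4 TPM. The log2 ratio of Pkp1 to Pkp2 counts, not divided by length, was 4.74 ± 1.01 in iCEC, 8.55 ± 0.407 in pCEC and -1.24 ± 0.768 in pNCC, with no overlap between any groups (exact permutation p = 0.1 for each pair, the smallest 3 against 3 allows).

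**Figure D3:**
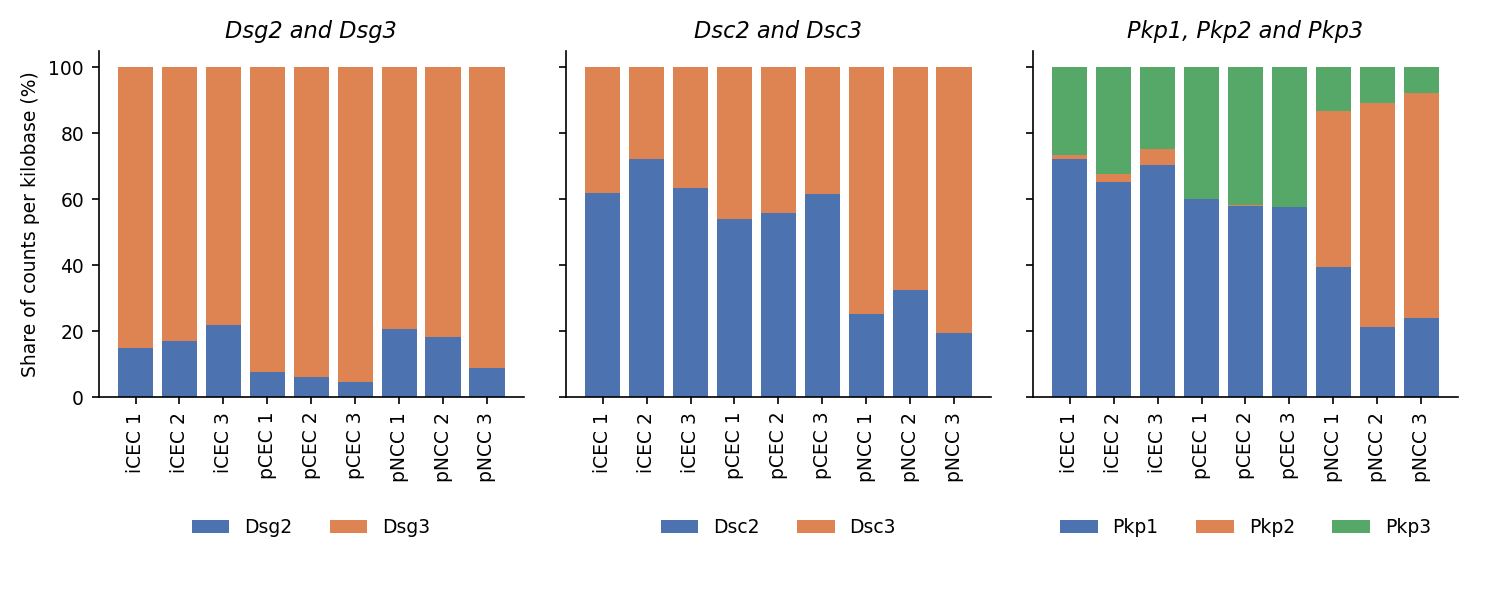
Share of each member in the summed counts per kb of the members of its family (y axis, percent) in each library of iCEC, pCEC and pNCC. The families are Dsg2 and Dsg3, Dsc2 and Dsc3, and Pkp1, Pkp2 and Pkp3. Pkp2 makes up at most 4.84% of these plakophilins in iCEC and 0.189% in pCEC, and 47.3% to 68.1% in pNCC.

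Epithelial markers at large were higher in iCEC and pCEC than in pNCC, so the members were also set against E-cadherin (Cdh1), the classical cadherin of epithelial adherens junctions, within each library. Cdh1 had 838, 954 and 636 CPM in iCEC, 421, 546 and 578 CPM in pCEC and 3.73, 3.69 and 5.25 CPM in pNCC. Per Cdh1 count, 6 members were lower in every iCEC library than in every pCEC library (Dsc2, Dsc3, Dsp, Pkp1, Pkp3 and Jup) and Pkp2 was higher, where 32.6% of all genes were lower and 8.85% higher without overlap. The log2 ratio of Dsc3 to Cdh1 was -2.19 ± 0.301 in iCEC, 1.05 ± 0.496 in pCEC and -0.61 ± 0.379 in pNCC (SD, n = 3 each). For Jup it was 0.21 ± 0.126 in iCEC, 1.97 ± 0.0690 in pCEC and 3.77 ± 0.137 in pNCC, with no overlap between groups. For Pkp1 it was 0.0036 ± 0.0741 in iCEC, 1.54 ± 0.0289 in pCEC and 0.40 ± 0.219 in pNCC. The direction depended on the epithelial gene used. Relative to Epcam, 8 members were lower in iCEC than in pCEC without overlap, where 57.1% of all genes were lower and 3.14% higher. Relative to Krt5, which was 4.72-fold lower in iCEC than in pCEC, 7 members were higher, where 72.9% of all genes were higher and 4.24% lower.

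**Figure D4:**
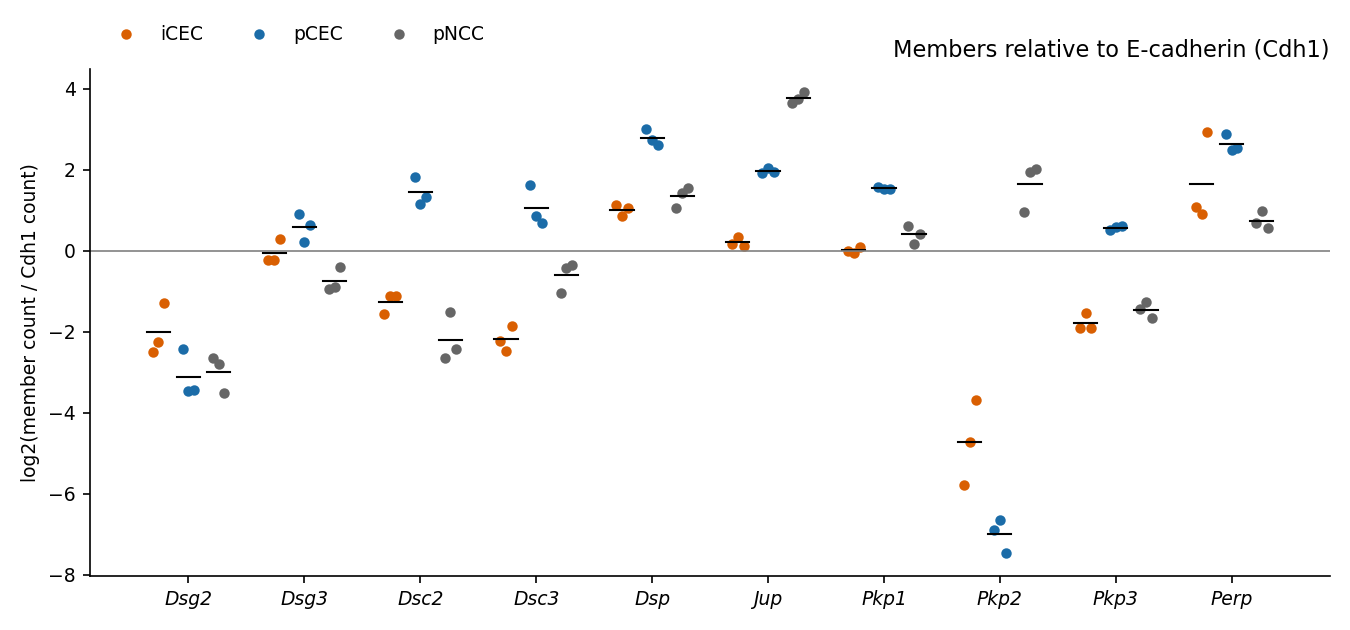
Log2 ratio of each member's count to the Cdh1 count of the same library (y axis, log2 units; points, libraries; black bars, means) for iCEC, pCEC and pNCC. The ratios of Dsp, Pkp1, Pkp3, Jup, Dsc2 and Dsc3 are lower in all iCEC libraries than in all pCEC libraries.

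All desmosomal cadherin genes lie in a cluster on chromosome 18, in the order Dsc3, Dsc2, Dsc1, Dsg1c, Dsg1a, Dsg1b, Dsg4, Dsg3 and Dsg2. Between the members lie genes known from the upper layers of the epidermis and from hair, and 3 of them, Dsg1a, Dsg1b and Dsc1, were lower in iCEC than in pCEC. Dsg1a, a mouse copy of desmoglein 1, had 1.92, 0.0545 and 0.774 CPM in iCEC, 1126, 811 and 797 CPM in pCEC and 0.187, 0 and 0.0571 CPM in pNCC. It was lower in iCEC than in pCEC by a log2 fold change of -10.05 ± 1.23 (adjusted p = 0.00513, edgeR), whereas Dsg3 of the same cluster did not pass. Dsg1b had 9.57, 1.28 and 0.655 CPM in iCEC, against 89.97, 54.5 and 53.9 CPM in pCEC (log2 fold change -4.18 ± 1.06, adjusted p = 0.0373 by edgeR). Dsg1a, Dsg1b and Dsg1c are close copies, and how the authors' counting divided reads between them is not given, so the values of each single copy are uncertain. Dsc1 was 6.36-fold lower in iCEC than in pCEC (adjusted p = 0.0244, edgeR), and it stood at or below 2.69 CPM in all libraries.

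**Figure D5:**
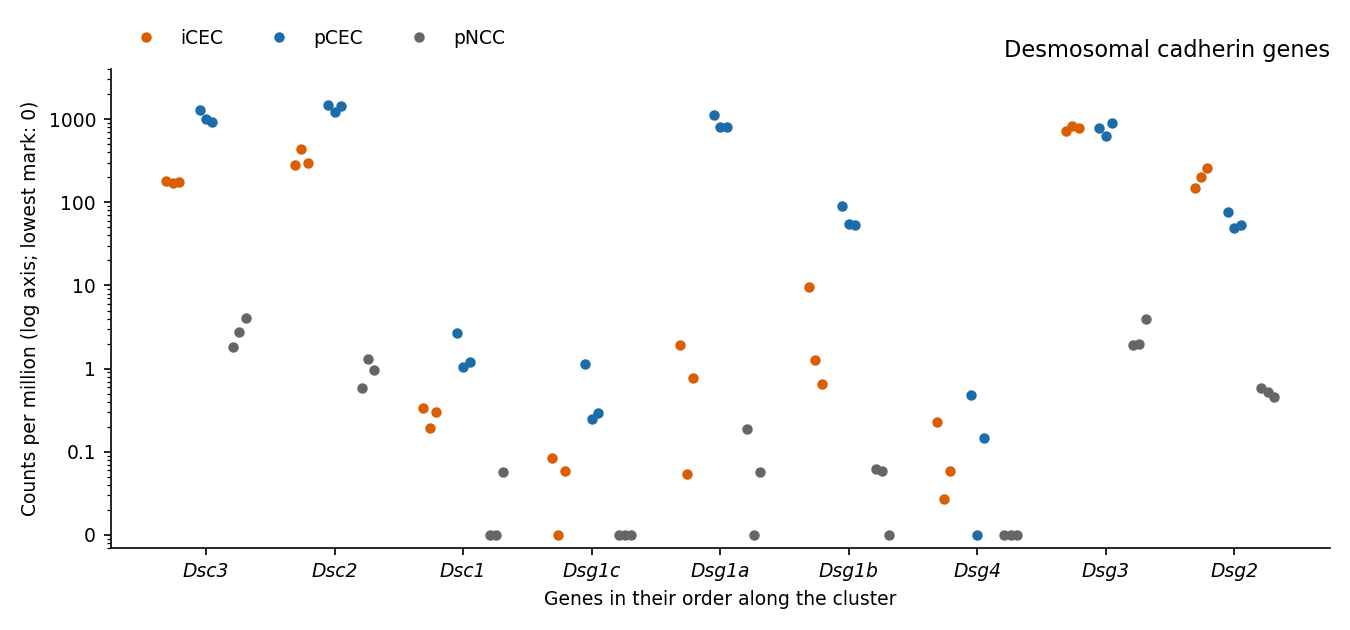
CPM in each library (points; y axis, log10, with 0 drawn at the lowest mark) of the desmosomal cadherin genes in their order along chromosome 18, for iCEC, pCEC and pNCC. The outer genes Dsc3, Dsc2, Dsg3 and Dsg2 are high in iCEC and pCEC, while Dsg1a has a mean of 0.915 CPM in iCEC and 911 CPM in pCEC.

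Further plaque proteins were higher than in pNCC too. Of 12 further genes listed as desmosomal, 8 were tested in iCEC over pNCC, and 6 of them rose and 1 fell. In pCEC over pNCC 9 of 10 rose and 1 fell. In iCEC over pCEC 4 of 10 were lower and 6 did not pass. Of all genes tested, 16.1% rose and 15.1% fell in iCEC over pNCC, and 30.3% rose and 32.2% fell in pCEC over pNCC. In iCEC over pCEC, 9.92% of all genes were lower. The median log2 fold changes of these further listed genes were 2.996, 4.57 and -1.68. Envoplakin (Evpl) and periplakin (Ppl), plakins of the desmosome and cornified envelope, were 458-fold and 460.3-fold higher in iCEC than in pNCC (adjusted p = 0.00401 and 0.00519, edgeR). The library iCEC 3 was low for both: Ppl had 943, 1325 and 119 CPM and Evpl 522, 656 and 65.7 CPM in iCEC, against 2396, 2122 and 2068 CPM and 2185, 3389 and 3198 CPM in pCEC. In iCEC over pCEC, neither passed with all libraries (adjusted p = 0.0564 for Evpl and 0.229 for Ppl, edgeR), and both passed without iCEC 3 (adjusted p = 0.00352 and 0.0276). Tmem47 was the gene of the list that fell. It encodes a tetraspan protein related to Perp and is itself neither a desmosomal cadherin nor a plaque protein. It was 261-fold lower in iCEC than in pNCC (0.334, 0.163 and 0.357 CPM against 70.8, 75.7 and 78.0 CPM).

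Keratins are the filaments that desmoplakin binds in epithelia. Of the stratified epithelial keratins, 9 of 11 tested rose in iCEC over pNCC and 11 of 12 in pCEC over pNCC, and 1 was higher and 4 lower in iCEC over pCEC. Of all genes tested, 16.1% rose in iCEC over pNCC and 30.3% in pCEC over pNCC. In iCEC over pCEC, 10.5% of all genes were higher and 9.92% lower. Krt5 had 9345, 5734 and 3745 CPM in iCEC, 21658, 30443 and 30082 CPM in pCEC and 30.7, 42.6 and 54.2 CPM in pNCC. All 5 simple epithelial keratins tested rose in iCEC over pNCC, 3 of 6 rose in pCEC over pNCC, and 2 of 5 were higher in iCEC than in pCEC. These were Krt8 and Krt18, the filament pair of simple epithelia, 306-fold and 382-fold higher (adjusted p = 0.00286 and 0.00224, edgeR). Krt7, Krt19 and Krt23 did not pass with all libraries (adjusted p = 0.0895, 0.0530 and 0.0524, edgeR). Krt7 had 1027 and 1263 CPM in iCEC 1 and iCEC 2, but 11.4 CPM in iCEC 3, below all pCEC libraries. Krt19 had 1520, 1855 and 147 CPM in iCEC and 110, 163 and 83.8 CPM in pCEC. Fits of these keratins without iCEC 3 are not given here, so their missing calls may rest on that library. Krt8 had 636, 666 and 2717 CPM in iCEC, 3.20, 5.63 and 2.74 CPM in pCEC and 3.89, 8.21 and 1.86 CPM in pNCC. Vimentin (Vim), the filament of mesenchymal cells, was 56.9-fold lower in iCEC and 75.8-fold lower in pCEC than in pNCC (adjusted p = 0.00227 and 3.26e-04, edgeR).

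Transcripts of hemidesmosomes, which tie keratins to the basement membrane, rose as well. Of 10 tested genes, 8 were higher in iCEC and 9 in pCEC than in pNCC, where 16.1% and 30.3% of all genes were higher. The median log2 fold changes were 4.11 and 4.12. The transmembrane collagen Col17a1 was 144-fold higher in iCEC and 557-fold higher in pCEC than in pNCC (adjusted p = 6.23e-04 and 1.40e-05, edgeR). Col17a1 and Plec, the plakin that links keratins to the hemidesmosome, were 3.87-fold and 2.24-fold lower in iCEC than in pCEC (adjusted p = 0.00847 and 0.0381, edgeR). Of 13 adherens junction genes, 8 were higher and 3 lower in iCEC than in pNCC, where 16.1% of all genes were higher and 15.1% lower. In pCEC against pNCC, 6 were higher and 3 lower, where 30.3% of all genes were higher and 32.2% lower. Cdh1 was 195-fold higher in iCEC than in pNCC, and N-cadherin (Cdh2) 539-fold lower (adjusted p = 3.08e-04 for both, edgeR).

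Transcription factors linked to desmosomal or epithelial genes were measured beside the members. Of 11 listed epithelial transcription factors, 10 rose in iCEC and 11 in pCEC relative to pNCC, with medians of 7.56 and 8.89 on the log2 scale. Of all genes tested, 16.1% rose in iCEC and 30.3% in pCEC. Trp63, the p53 family factor of stratified epithelia, had 251, 275 and 262 CPM in iCEC, 380.0, 341 and 337 CPM in pCEC and 1.55, 1.76 and 0.914 CPM in pNCC. Grhl2, a grainyhead-like factor, was 506-fold higher in iCEC and 766-fold higher in pCEC than in pNCC (adjusted p = 4.31e-04 and 1.04e-06, edgeR). Klf4, a factor of epithelial differentiation, was the listed factor that did not pass in iCEC over pNCC. It had 116, 227 and 108 CPM in iCEC, 937, 1507 and 1425 CPM in pCEC and 115, 90.2 and 78.9 CPM in pNCC. Klf4 and Ovol1 were 9.25-fold and 5.18-fold lower in iCEC than in pCEC (adjusted p = 0.00654 and 0.0188, edgeR). Of 6 repressors of epithelial adhesion genes, 5 fell in iCEC and 6 in pCEC relative to pNCC, where 15.1% and 32.2% of all genes fell. Zeb1 was 54.5-fold and Snai1 92.8-fold lower in iCEC than in pNCC (adjusted p = 0.00314 and 0.00571, edgeR), while Snai2 had a log2 fold change of 0.0084 (adjusted p = 0.990), with 31.0, 35.0 and 98.1 CPM in iCEC, 20.4, 27.6 and 26.5 CPM in pCEC and 40.6, 49.97 and 65.1 CPM in pNCC.

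The log2 CPM of each of the 10 members was standardised over the 9 libraries and averaged into 1 profile. This profile was compared with the log2 CPM of 10125 genes with a mean of at least 10 CPM. The genes nearest to it were Ildr1, a protein of tricellular junctions (Pearson's r = 0.999), Rassf3, Eppk1, the plakin epiplakin, Arhgef5 and Spint1, an inhibitor of epithelial serine proteases (r = 0.997 for each of the last 4). The lowest were Slc36a4 and Pigk (r = -0.992), Ccl11 and Gdf10 (r = -0.991) and Poglut3 (r = -0.989). These values describe likeness only, since the 9 libraries fall into 3 groups. Single members had r of 0.955 to 0.998 with the profile they form part of, except Pkp2 at -0.033.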

How the data were processed

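RNA was measured in 9 mouse libraries of 3 groups. The authors deposited 1 table of raw, whole-number counts for 56481 gene symbols, which they had not normalized. Per the submitters' processing notes, the build was mm10 and edgeR was among the tools; the aligner, the counting tool, the annotation and the use of strand are not given in the sources used here. Per the labels' protocols, libraries were made with NEBNext Ultra kits and read as pairs of 150 bases. Groups and replicate numbers came from the titles. Symbols were matched to GENCODE M21, and 48988 of them (86.7%) matched 1 gene, for positions and for union exon length.

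Each comparison was fitted on its own 6 libraries in R 4.3.3 with edgeR 4.0.16: filterByExpr, TMM scaling and a robust quasi-likelihood test, 2-sided, with group as the only term. P-values were adjusted by Benjamini-Hochberg across every tested gene and called under 0.05. SE was taken from the log2 fold change and the F statistic of that test. CPM are counts scaled to the library total. TPM-like values and shares use union exon length. Ratios were compared by exact permutation. Genes that overlap the members were checked by exon position. Near-identical genes at other positions were not checked. The fit was tested on simulated data.

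The members, the gene lists, their tests and the alternatives were chosen with earlier results of these data known. Besides the members, up to 4 called genes per list and comparison with the smallest adjusted p were named, with any gene alone against its list's direction, the 5 genes most like and least like the member profile, and Cdh1, Epcam and Krt5. The markers Krt12, Col8a2, Car2, Tnnt2, Myh6 and Myh7 were chosen after their values were seen. So were the keratins that did not pass and the single CPM values of iCEC 3 for some listed genes. A listed gene that the rule names is not reported here. Alternatives were other scalings and filters, DESeq2 1.42.0, all 9 libraries in 1 fit, a replicate block, a minimum of 2-fold, each library left out, the polyA pCEC library alone and other transcript lengths. Python 3.11.15 with pandas 2.3.3, scipy 1.17.1 and matplotlib 3.10.9 was used for the rest.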

Additional observations from a re-analysis of the deposited data

How the results depend on the processing

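The 9 members higher than in pNCC stayed so in both comparisons under every alternative run, with log2 fold changes of 3.74 to 8.80 in iCEC over pNCC and 4.79 to 10.88 in pCEC over pNCC. Fits of iCEC over pCEC were less stable. The count of members lower in iCEC, 5, was 2 with the replicate block, 2 with a minimum of 2-fold and 0 with the polyA pCEC library alone by edgeR (4 of 10 members at an unadjusted p under 0.05; that fit called none of 18806 genes, so it says nothing of the members), and 2 to 7 with a library left out. The count higher in iCEC, 2, was 1 with a minimum of 2-fold, 0 with the polyA library alone and 0 to 2 with a library left out. The single member lower in pCEC than in pNCC (Pkp2) was lost with the 2-fold minimum and with the polyA library alone (0 members) and in 1 of the leave-one-out fits (0 to 1). The cause was not tested. Dsg3 turned sign in iCEC over pCEC without pCEC replicate 3, with values of -0.26 to 0.040 over the fits that leave out a library. Jup passed in iCEC over pCEC with DESeq2 (adjusted p = 0.00694), no filter (0.0350), a filter of 1 CPM (0.0495), all 9 libraries (0.0331) and, added after seeing the data, no scaling beyond library size (0.0421).

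Deviations of same-numbered replicates correlated weakly (r of -0.181 to 0.0715 over the 3 comparisons). In pCEC over pNCC, 3 of 6 libraries matched best with their own number, and 0 of 6 in each other comparison. With 3 libraries per group, these values cannot settle whether the numbers mark a pairing. With the replicate number as a block, 10, 9 and 2 members were higher in the 3 comparisons. The tenth in iCEC over pNCC was Pkp2 (adjusted p = 0.0401, edgeR). Over the whole table, the replicate block gave 1429 higher and 1435 lower genes in iCEC over pNCC, against 2630 and 2463 without it, and 664 and 631 in iCEC over pCEC, against 1713 and 1614. The 2-fold minimum gave 1259 and 1343 in iCEC over pNCC, 2830 and 2886 in pCEC over pNCC (5032 and 5350 without it) and 673 and 760 in iCEC over pCEC. Leaving out a pNCC library gave 1093 to 1242 higher genes in iCEC over pNCC, and leaving out a pCEC library 533 to 579 in iCEC over pCEC. Without scaling the median log2 fold change of all genes was -0.14 in pCEC over pNCC and 0.17 in iCEC over pCEC, against -0.013 and 0.039.

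Shares depend on the transcript length used. With the longest transcript, Dsg2 held 21.9% in iCEC and 7.78% in pCEC, Pkp1 65.3% in iCEC and 55.04% in pCEC, Pkp2 4.51% in iCEC and 0.241% in pCEC, and Pkp3 44.7% in pCEC. With coding length, Pkp1 held 77.1% in iCEC and 68.8% in pCEC, and Pkp3 19.8% in iCEC, 31.0% in pCEC and 7.17% in pNCC. Relative to Epcam, 0 members were higher in iCEC than in pCEC without overlap; relative to Krt5, 7 were higher and 0 lower. With a prior count of 0.5, 4 of the 5 genes nearest to the member profile were shared. In pNCC most members had few counts (53 for Dsg2 over 3 libraries), which limits how well their folds are known.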

Other observations

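Genes of desmosome turnover and kinases that act on desmosomes were called about as often as all genes in the comparisons with pNCC. Of 11 tested, 2 were higher and 2 lower in iCEC than in pNCC (16.1% and 15.1% of all genes), 3 higher and 4 lower in pCEC than in pNCC (30.3% and 32.2% of all genes), and 2 higher in iCEC than in pCEC (10.5% of all genes), with median log2 fold changes of -0.12, -0.053 and -0.21. The flotillins Flot1 and Flot2, membrane scaffold proteins, were 3.05-fold and 2.44-fold lower in iCEC than in pNCC (adjusted p = 0.00124 and 0.00876, edgeR). The transglutaminase Tgm1, which crosslinks the cornified envelope, had 381, 575 and 21.5 CPM in iCEC, 45.9, 40.1 and 63.4 CPM in pCEC and 4.32, 4.16 and 3.91 CPM in pNCC, so that iCEC 3 lay below every pCEC library, and iCEC 1 and iCEC 2 above them. The kinase Prkcd was 2.29-fold higher in iCEC and 2.89-fold higher in pCEC than in pNCC (adjusted p = 0.0497 and 5.98e-05, edgeR). The metalloprotease Adam10, which sheds cadherins, was 1.94-fold higher in iCEC than in pCEC (adjusted p = 0.0346, edgeR).

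Of 5 tested intermediate filaments other than keratins, 2 were lower and 1 higher in iCEC than in pNCC, where 15.1% and 16.1% of all genes were. In pCEC against pNCC, 3 were lower and 2 higher, where 32.2% and 30.3% of all genes were. Desmin (Des), the filament that desmosomes hold in heart muscle, had 24 counts in iCEC and 1192 in pNCC over 3 libraries each, a 62.7-fold lower level (adjusted p = 0.0197, edgeR), and no count in pCEC, at least 126-fold lower than in pNCC. Synemin (Synm) was 3.23-fold higher in iCEC and 2.24-fold higher in pCEC than in pNCC (adjusted p = 0.0263 and 0.0211, edgeR).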
